A study of Mus musculus with 12 samples.

Results

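The 10 genes described here are 8 members of the mouse *Cyp3a* family (*Cyp3a11*, *Cyp3a13*, *Cyp3a16*, *Cyp3a25*, *Cyp3a41a*, *Cyp3a41b*, *Cyp3a44* and *Cyp3a59*), *Cyp2b10* and *Por*. They were taken by name from 2 tables of read counts per gene, which together list 23391 genes, and all 10 are among the 20093 genes listed in both. The counts come from bulk RNA-seq of whole livers of male C57BL/6N mice, 3 libraries in each of 4 groups. All 12 mice carried the floxed *Elavl1* allele (HuR flox/flox) and were 4 to 6 months old when injected with an AAV8 vector. Mice labelled HuRHep-/- received AAV8-Tbg-Cre, in which the hepatocyte promoter Tbg drives Cre, and controls, called WT, received AAV8-Tbg-null. Livers were taken from mice on normal chow, or after 16 weeks on a high fat, cholesterol and fructose (HFCF) diet with 40 kcal% fat, 2% cholesterol and 20 kcal% fructose. The paper on these mice instead describes an albumin-Cre cross, and the counts do not show which description holds.

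Cytochromes P450 of the CYP3A family are haem enzymes of the hepatocyte endoplasmic reticulum that oxidise many drugs, steroids and bile acids. Their genes, and those of the CYP2B family, are classical targets of the nuclear receptors PXR (*Nr1i2*) and CAR (*Nr1i3*), which bind DNA as heterodimers with RXR at repeats of short hexamers. POR, the product of *Por*, passes electrons from NADPH to all microsomal P450 enzymes. *Cyp3a11* is the main CYP3A enzyme of adult mouse liver, *Cyp3a41a*, *Cyp3a41b* and *Cyp3a44* are known as female-biased, and *Cyp3a16* as a gene of fetal liver. *Cyp2b10* is the best known CAR target in the mouse.

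Most of the *Cyp3a* genes are close copies of another member, which bears on their counts. All 8 lie on chromosome 5 of GRCm38. *Cyp3a11* (ENSMUSG00000056035) spans 145854426 to 145879964 on the minus strand, *Cyp3a13* (ENSMUSG00000029727) lies apart from the others at 137892932 to 137921619, and *Cyp3a59* (ENSMUSG00000061292) lies at 146079257 to 146113287 on the plus strand. *Por* (ENSMUSG00000005514) is on the same chromosome at 135670033 to 135735326, and *Cyp2b10* (ENSMUSG00000030483) is on chromosome 7 at 25897620 to 25926624. The coding sequences of *Cyp3a25* and *Cyp3a59* were identical at 97.5% of 1512 positions. *Cyp3a11* was identical to *Cyp3a41a* at 95.2%, to *Cyp3a44* at 94.9% and to *Cyp3a16* at 92.8% of 1515 positions, but to *Cyp3a25* at 76.0%. *Cyp3a13* stood at 74.7% to 76.5% to every other member, and 0.239% of its transcript words of 31 bases occurred in another gene. For *Por* that share was 0, and for *Cyp2b10* it was 22.5%, with *Cyp2b13* holding 15.2%.

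In the stretch that encodes the haem-binding signature of P450 enzymes, few bases separate the members. The 60 coding bases lie in exon 12 of each gene (GENCODE transcripts, GRCm38), and capitals mark bases that differ from *Cyp3a11*. They are shown because a read that lies here tells *Cyp3a16* from *Cyp3a11* by 1 base. Over the whole coding sequence these genes differed at 109 of 1515 positions.
*Cyp3a11*, chr5:145858790-145858849, minus strand: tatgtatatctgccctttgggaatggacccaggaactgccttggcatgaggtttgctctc
*Cyp3a16*, chr5:145440426-145440485, minus strand: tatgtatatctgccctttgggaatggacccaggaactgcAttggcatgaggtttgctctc
*Cyp3a44*, chr5:145777990-145778049, minus strand: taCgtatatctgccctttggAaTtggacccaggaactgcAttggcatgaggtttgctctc
*Cyp3a13*, chr5:137895252-137895311, minus strand: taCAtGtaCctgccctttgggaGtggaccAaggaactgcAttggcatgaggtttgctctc
*Cyp3a25*, chr5:145981453-145981512, minus strand: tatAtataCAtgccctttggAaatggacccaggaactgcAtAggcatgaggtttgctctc
*Cyp3a59*, chr5:146109077-146109136, plus strand: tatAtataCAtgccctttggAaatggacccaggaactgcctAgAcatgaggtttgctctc
The *Cyp3a59* window held 6 differences from *Cyp3a11*, and it was placed by the coding offset of *Cyp3a25*, since the signature was not found in *Cyp3a59*.

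*Cyp3a41a* (chromosome 5, 145694049 to 145720136) and *Cyp3a41b* (145558664 to 145584730) are the closest pair. Their coding sequences differ at 2 of 1515 positions, G120A and G336T, with the *Cyp3a41a* base first and positions counted from the first base of the start codon. Windows of 61 coding bases around these positions are shown, with the differing base in capitals, because only reads that cross such a base can be assigned to 1 of the 2 coding sequences.
*Cyp3a41a*, chr5:145717940-145718000, minus strand, around coding position 120, exon 2: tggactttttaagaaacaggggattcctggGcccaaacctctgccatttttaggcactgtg
*Cyp3a41b*, chr5:145582530-145582590, minus strand, around coding position 120, exon 2: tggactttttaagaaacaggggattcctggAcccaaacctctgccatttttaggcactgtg
*Cyp3a41a*, chr5:145709111-145713526, minus strand, around coding position 336, exon 5: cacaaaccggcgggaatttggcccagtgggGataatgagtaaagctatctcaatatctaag
*Cyp3a41b*, chr5:145573697-145578108, minus strand, around coding position 336, exon 5: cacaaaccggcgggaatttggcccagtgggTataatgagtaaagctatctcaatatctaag
The windows around position 336 are coding bases with the intron between their exons left out. Of the 31-base words of *Cyp3a41a*, 96.1% occurred in *Cyp3a41b*. The counts of both rows were therefore also added up, and the sum is the value used below for the pair.

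RefSeq promoters of GRCm38.p6, from 250 bases before to 50 after each start site, were found for all 10 genes. The hexamers AGGTCA and AGTTCA, the sites of 1 receptor of a pair, were searched on both strands. AGGTCA was present in 16.3% and AGTTCA in 14.0% of 32851 promoters of the same length. The bases from -190 to -111 are shown for the members that hold a hexamer and for *Cyp3a16*, which holds none, with hexamers in capitals (TGACCT and TGAACT are their reverse complements).
*Cyp3a11*, chr5:145879965-145880044, minus strand: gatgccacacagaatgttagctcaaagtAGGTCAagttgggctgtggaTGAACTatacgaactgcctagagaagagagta
*Cyp3a25*, chr5:146009728-146009807, minus strand: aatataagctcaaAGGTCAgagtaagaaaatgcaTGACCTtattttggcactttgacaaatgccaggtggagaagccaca
*Cyp3a59*, chr5:146079068-146079147, plus strand: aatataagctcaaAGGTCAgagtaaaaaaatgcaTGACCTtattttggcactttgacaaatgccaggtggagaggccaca
*Cyp3a41a*, chr5:145720247-145720326, minus strand: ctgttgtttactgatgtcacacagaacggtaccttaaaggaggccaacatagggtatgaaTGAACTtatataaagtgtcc
*Cyp3a44*, chr5:145805985-145806064, minus strand: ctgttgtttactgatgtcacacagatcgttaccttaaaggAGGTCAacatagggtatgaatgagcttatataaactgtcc
*Cyp3a16*, chr5:145469834-145469913, minus strand: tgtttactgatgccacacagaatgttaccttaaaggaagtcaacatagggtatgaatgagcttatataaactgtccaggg
*Cyp3a11* held AGGTCA at -162 and AGTTCA at -142. *Cyp3a25* and *Cyp3a59*, whose windows differ at 2 of 80 bases, each held 2 copies of AGGTCA at -177 and -156. The windows of *Cyp3a41a* and *Cyp3a41b* are the same in all 80 bases, so only 1 is shown. No hexamer was found in the promoters of *Cyp3a13*, *Cyp2b10* or *Por*, which says only that these letters are not in this window. No direct repeat of either hexamer with 3 or 4 bases between the copies, and no everted AGTTCA repeat with 6, was found in any of the 10.

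HuR is encoded by *Elavl1*, the gene targeted by Cre. Its raw counts were 938, 876 and 948 in chow WT, 1475, 1265 and 1261 in chow HuRHep-/-, 904, 791 and 849 in HFCF WT and 1299, 1242 and 1271 in HFCF HuRHep-/-. All 6 livers labelled HuRHep-/- had more *Elavl1* reads than any WT liver (log2 fold change 0.41, SE 0.068, adjusted p = 0.0220 in chow and 0.38, SE 0.072, adjusted p = 0.0327 in HFCF, limma with Benjamini-Hochberg adjustment). Reads over the whole gene were thus higher, not lower, under the label of a deletion. The counts do not show which exons these reads came from, and every direction between genotypes given below is a direction between these labels. Library totals ran from 30071731 to 35949203 counts.

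Levels were compared between genes as CPM per kilobase of exon, where CPM are counts scaled to a common library size with TMM factors (trimmed means of the log ratios between libraries). In chow WT livers the order was *Cyp3a11* (800 ± 118, SD, n = 3), *Cyp3a25* (270 ± 72.0), *Por* (125 ± 17.3), *Cyp3a13* (50.9 ± 1.97), *Cyp3a59* (14.0 ± 3.58), *Cyp2b10* (5.65 ± 3.95), the *Cyp3a41* pair (1.71 ± 0.139), *Cyp3a16* (1.43 ± 0.411) and *Cyp3a44* (0.270 ± 0.0479). The ranges of *Cyp3a59* and *Cyp2b10* overlapped, as did those of the *Cyp3a41* pair and *Cyp3a16*, and the other neighbours did not. The order was the same in chow HuRHep-/- and HFCF HuRHep-/- livers except that *Cyp2b10* no longer overlapped *Cyp3a59*, and that the *Cyp3a41* pair and *Cyp3a16* no longer overlapped in the latter. In HFCF WT livers *Cyp2b10* (0.794 ± 1.16) stood below the *Cyp3a41* pair (0.859 ± 0.340), with overlapping ranges. Reads on the 8 *Cyp3a* members made up 0.379% to 0.489% of all counts in chow WT and 0.152% to 0.329% in HFCF WT.

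**Figure D1:**
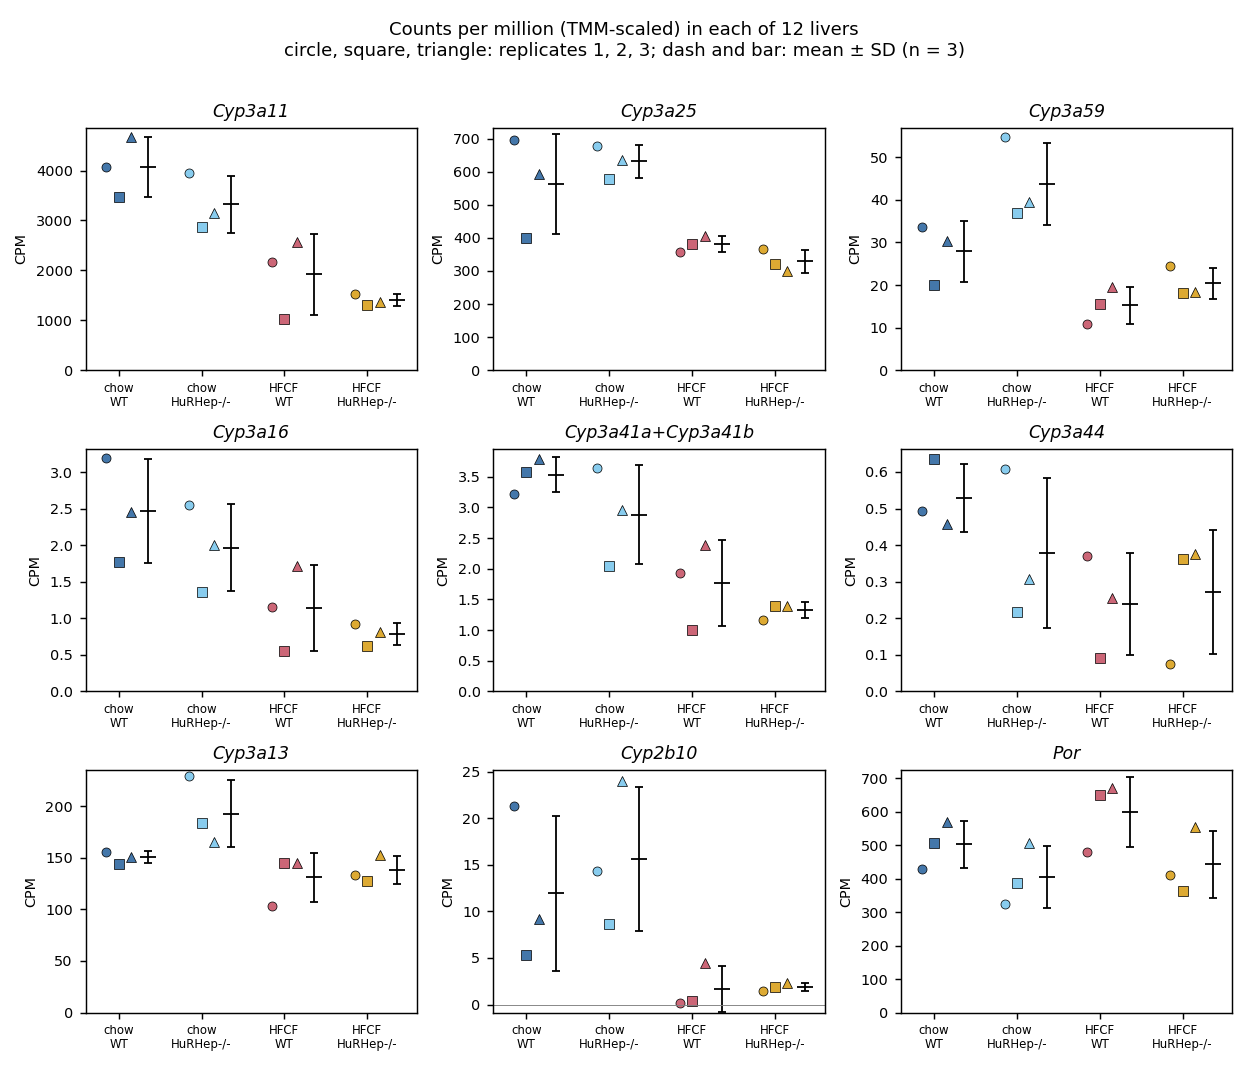
CPM (linear axes, TMM-scaled) of each gene in each of 12 livers, with the 4 groups side by side and the *Cyp3a41* rows summed; symbols are replicates, and the dash and bar give the mean and SD of 3. *Cyp3a11*, *Cyp3a16*, *Cyp3a59*, the *Cyp3a41* sum and *Cyp2b10* lie lower in HFCF than in chow livers with no overlap within either genotype, whereas *Por* overlaps in both.

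The comparison of diets asks how the HFCF diet moved these genes, and it was made within each genotype over the same 12-library fit. *Cyp3a11*, *Cyp3a16*, *Cyp3a25*, *Cyp3a59* and *Cyp2b10* fell in HFCF livers in WT and in those labelled HuRHep-/-, and so did the *Cyp3a41* sum. *Cyp2b10* was 14.9-fold lower in WT and 7.74-fold lower in HuRHep-/-, and *Cyp3a11* was 2.27-fold and 2.35-fold lower. *Cyp3a13* fell in HuRHep-/- and did not pass the test in WT, and *Por* passed the test in neither. Of the 10 members as single rows, 6 were lowered and 0 raised in WT livers, where 12.9% of 14535 genes tested were called lowered at an adjusted p of at most 0.05, and 6 were lowered and 0 raised in HuRHep-/-, where 19.1% were. Without chow WT replicate 1 the WT count was 1, and without chow HuRHep-/- replicate 1 the HuRHep-/- count was 3. The median log2 fold change of the members was -1.03 in WT and -1.02 in HuRHep-/-, beside 0.01 and 0.00 over all genes. The livers of each diet came in a table of their own, so diet and table cannot be told apart, and both comparisons share libraries with those between genotypes.

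*Cyp3a11*, the main drug-oxidising member, had raw counts of 123804, 103933 and 143124 in chow WT, 136473, 92527 and 102370 in chow HuRHep-/-, 82490, 33325 and 80926 in HFCF WT and 61455, 50747 and 50518 in HFCF HuRHep-/-. Every chow liver lay above every HFCF liver, and HFCF WT replicate 2 was the lowest of all. In CPM it went from 4076 ± 601 to 1922 ± 808 in WT and from 3323 ± 566 to 1402 ± 114 in HuRHep-/- (SD, n = 3). The log2 fold change was -1.18 in WT (95% interval -1.79 to -0.57, adjusted p = 0.0112, limma) and -1.23 in HuRHep-/- (-1.84 to -0.63, adjusted p = 0.00536). Both calls held without each of the 12 libraries, and without HFCF WT replicate 2 the log2 fold change in WT was -0.77.

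*Cyp3a25*, a second abundant CYP3A enzyme, had counts of 21135, 11968 and 18121 in chow WT and 13572, 12534 and 12761 in HFCF WT, which overlap at the lowest chow liver. In HuRHep-/- its counts were 23412, 18715 and 20653 in chow and 14694, 12373 and 11112 in HFCF, with no overlap. Its fall was -0.52 on the log2 scale in WT (adjusted p = 0.0367) and -0.94 in HuRHep-/- (adjusted p = 0.00138). The WT call was lost in 5 of 12 fits that each left out 1 library (chow WT replicates 1 and 3 and each HFCF WT replicate, log2 fold changes -0.35 to -0.57, adjusted p from 0.0610 to 0.142), with upper-quartile factors (-0.47, adjusted p = 0.0514) and without TMM factors (-0.34, adjusted p = 0.111).

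*Cyp3a59*, the near copy of *Cyp3a25*, had 1023, 596 and 927 counts in chow WT, 1890, 1190 and 1287 in chow HuRHep-/-, 408, 512 and 613 in HFCF WT and 985, 700 and 685 in HFCF HuRHep-/-. In CPM, chow livers lay above HFCF livers within each genotype. It fell by 0.88 on the log2 scale in WT (adjusted p = 0.0235) and by 1.09 in HuRHep-/- (adjusted p = 0.00514). The call in WT was lost without chow WT replicate 1 (-0.73, adjusted p = 0.0934), chow WT replicate 3 (-0.80, adjusted p = 0.0774) or HFCF WT replicate 1 (-0.64, adjusted p = 0.0858).

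The pair *Cyp3a41a* and *Cyp3a41b* was split unevenly between its rows. *Cyp3a41a* had 53, 39 and 87 counts in chow WT, 126, 66 and 69 in chow HuRHep-/-, 73, 33 and 75 in HFCF WT and 0, 54 and 52 in HFCF HuRHep-/-. *Cyp3a41b* had 45, 68 and 29, then 0, 0 and 27, then 0, 0 and 0, and then 47, 0 and 0 in the same order of groups. In 8 of the 12 libraries 1 of the 2 rows was at 0 while the other held between 33 and 126 counts, and this was so in all 6 HFCF libraries and in 2 chow libraries. Taken alone, *Cyp3a41b* was called lower in HFCF WT (adjusted p = 0.0196), at least 17.7-fold against a floor of 3 counts per library, and was not called in HuRHep-/- (adjusted p = 0.989), where *Cyp3a41a* had a log2 fold change of -3.11 (adjusted p = 0.0932). With 1 library left out, the *Cyp3a41a* value in HuRHep-/- ran from -4.25 to -0.84. It was called in 2 of 12 such fits (without HFCF HuRHep-/- replicate 2 or 3) and with voom weights. The WT call on *Cyp3a41b* was lost without chow WT replicate 1 (adjusted p = 0.0587), HFCF WT replicate 1 (adjusted p = 0.0524) or HFCF WT replicate 3 (adjusted p = 0.0515), and the *Cyp3a41b* row was not tested where at least 10 counts were asked of every library. The sum was called lower in both, at -1.07 in WT (adjusted p = 0.0211) and -1.08 in HuRHep-/- (adjusted p = 0.0131). Without chow WT replicate 3 the WT call on the sum was lost (-1.02, adjusted p = 0.0662).

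**Figure D2:**
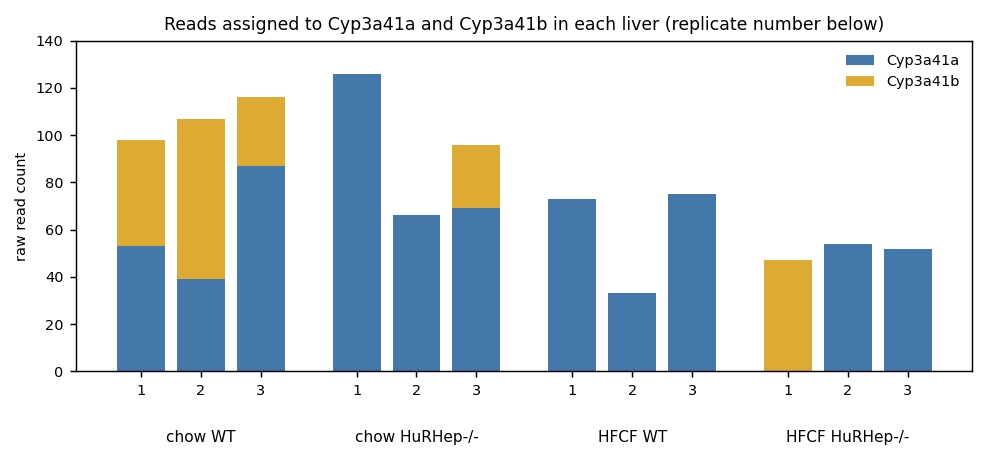
Raw read counts (linear axis from 0) given to *Cyp3a41a* (blue) and *Cyp3a41b* (yellow) in each of 12 livers, stacked so that the height is the sum. All 6 HFCF livers and 2 chow livers carry a single colour, while the sums run from 33 to 126.

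*Cyp3a16* had 97, 53 and 75 counts in chow WT, 88, 44 and 65 in chow HuRHep-/-, 44, 18 and 54 in HFCF WT and 37, 24 and 30 in HFCF HuRHep-/-. It was called lower in HFCF at -1.21 in WT (adjusted p = 0.0408) and -1.29 in HuRHep-/- (adjusted p = 0.0214). The WT call was lost in 6 of 12 fits with 1 library left out (chow WT replicates 1 and 3, chow HuRHep-/- replicate 3, HFCF WT replicates 1 and 2 and HFCF HuRHep-/- replicate 3, adjusted p from 0.0504 to 0.144), with upper-quartile factors (-1.16, adjusted p = 0.0525) and without TMM factors (-1.03, adjusted p = 0.0754). The call in HuRHep-/- was lost in 3 (chow HuRHep-/- replicates 1 and 3 and HFCF HuRHep-/- replicate 2, adjusted p from 0.0586 to 0.0726), and without TMM factors (-1.06, adjusted p = 0.0523). *Cyp3a44* had between 3 and 21 counts in every library and was not called (log2 fold change -1.28, adjusted p = 0.170 in WT; -0.62, adjusted p = 0.468 in HuRHep-/-).

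Several rows spanned less over the 12 livers as a ratio to *Cyp3a11* than in their own counts, a comparison made after their values were seen and given without a test. *Cyp3a11* counts spanned 4.29-fold. *Cyp3a16* had between 0.473 and 0.784 reads, and the *Cyp3a41* sum between 0.713 and 1.06 reads, per 1000 *Cyp3a11* reads, which are spans of 1.66-fold and 1.49-fold beside spans of 5.39-fold and 3.82-fold in their own counts. *Cyp3a25* had 115 to 376 reads per 1000 of *Cyp3a11*, a span of 3.27-fold beside 2.11-fold in its counts, *Cyp3a44* had 0.0488 to 0.277, a span of 5.68-fold beside 7-fold in its counts, and *Cyp3a13*, which shares few words with any member, 32.3 to 143, a span of 4.42-fold beside 2.01-fold in its counts. *Cyp3a59*, for which no word shared with *Cyp3a11* was found, had 4.95 to 16.0, a span of 3.24-fold beside 4.63-fold in its counts. Of the 31-base words of *Cyp3a16*, 16.1% occurred in *Cyp3a11*, of those of *Cyp3a41a* 19.8%, and of those of *Cyp3a44*, whose ratio spanned most, 20.4%. How many of the low counts were reads of *Cyp3a11* was not tested, so the falls of *Cyp3a16* and of the *Cyp3a41* pair cannot be told apart from that of *Cyp3a11*.

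*Cyp3a13*, the most divergent member, had 4733, 4313 and 4621 counts in chow WT, 7892, 5940 and 5381 in chow HuRHep-/-, 3923, 4752 and 4552 in HFCF WT and 5332, 4905 and 5679 in HFCF HuRHep-/-. In HuRHep-/- the CPM of chow and HFCF livers did not overlap, and the fall was -0.48 on the log2 scale (adjusted p = 0.0200). In WT it was -0.21 (95% interval -0.52 to 0.09, adjusted p = 0.288). The difference between these diet changes was not called (-0.26, adjusted p = 0.576). The call in HuRHep-/- was lost without chow HuRHep-/- replicate 1 (-0.35, adjusted p = 0.0734), HFCF HuRHep-/- replicate 1 (-0.45, adjusted p = 0.0611) or HFCF HuRHep-/- replicate 2 (-0.42, adjusted p = 0.0690), and without TMM factors (-0.25, adjusted p = 0.192).

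*Cyp2b10*, the CAR target, had 647, 159 and 281 counts in chow WT, 496, 279 and 778 in chow HuRHep-/-, 7, 11 and 142 in HFCF WT and 60, 71 and 85 in HFCF HuRHep-/-. All 6 chow livers lay above all 6 HFCF livers, and HFCF WT replicate 3 stood far above the 2 other HFCF WT livers. The fall was -3.90 in WT (95% interval -5.92 to -1.88, adjusted p = 0.0115) and -2.95 in HuRHep-/- (-4.97 to -0.93, adjusted p = 0.0255). Without HFCF WT replicate 3 the fall in WT was -5.27. The WT call was lost without chow WT replicate 1 (adjusted p = 0.0516), and that in HuRHep-/- without chow HuRHep-/- replicates 1 or 3 or HFCF HuRHep-/- replicates 1 or 2 (-2.59 to -2.96, adjusted p from 0.0558 to 0.0867). *Cyp2b10* too was not tested where at least 10 counts were asked of every library. Of its relatives, *Cyp2b9* had 2 to 46 counts in the 6 chow livers, 79, 20 and 1239 in HFCF WT and 1671, 887 and 1109 in HFCF HuRHep-/- (log2 fold change 6.49, adjusted p = 0.00434 in HuRHep-/-, and 2.84, adjusted p = 0.159 in WT), and HFCF WT replicate 3 again stood apart from its group.

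*Por*, the electron donor of these enzymes, had 13070, 15184 and 17405 counts in chow WT, 11207, 12476 and 16452 in chow HuRHep-/-, 18152, 21332 and 21085 in HFCF WT and 16447, 14023 and 20633 in HFCF HuRHep-/-. In CPM the diets overlapped within each genotype. The log2 difference between diets was 0.25 in WT (95% interval -0.18 to 0.68, adjusted p = 0.379) and 0.13 in HuRHep-/- (-0.30 to 0.56, adjusted p = 0.633). Exact two-sided permutation tests, with labels exchanged within each genotype (400 arrangements), gave p = 0.235 for *Por* and p = 0.005, the smallest they can give, for *Cyp3a11*, *Cyp3a16*, *Cyp3a59*, *Cyp2b10* and the *Cyp3a41* sum. The same permutation tests gave p = 0.01 for *Cyp3a25*, p = 0.015 for *Cyp3a13* and p = 0.085 for *Cyp3a44*.

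**Figure D3:**
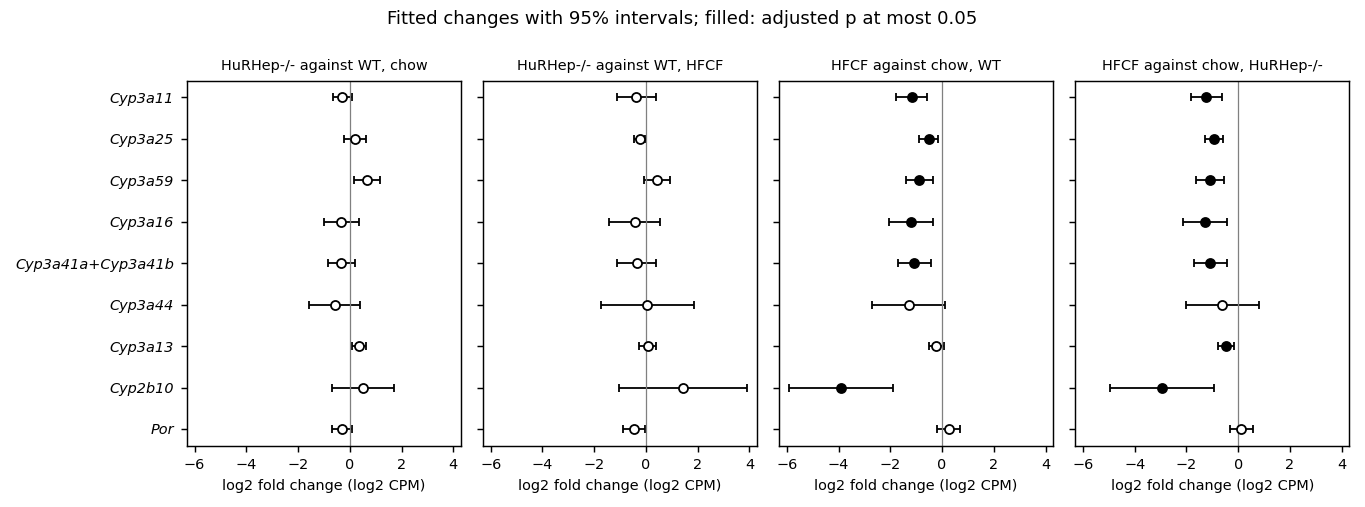
Fitted log2 fold changes (log2 CPM scale, horizontal axis) with 95% intervals for 8 single genes and the *Cyp3a41* sum, in 4 comparisons; filled points have an adjusted p of at most 0.05. Filled points occur only in the 2 diet panels and all lie below 0, at -3.90 for *Cyp2b10* and -1.18 for *Cyp3a11* in WT.

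The comparison of genotypes asks whether livers labelled HuRHep-/- differed from WT on the same diet. In chow livers 0 of 10 members were called, where 4.18% of 13526 genes were. In HFCF livers 0 of 9 members tested were called, where 6.79% of 14295 genes were, and *Cyp3a41b* did not pass the filter on low counts. These all-gene counts moved with single libraries, and a fit without 1 library also has fewer livers. The 566 genes called in chow became 136 and 88 without chow WT replicates 1 and 3, and 114 and 9 without chow HuRHep-/- replicates 1 and 2. Without chow WT replicate 2 there were 535, and without chow HuRHep-/- replicate 3 there were 502. The 971 called in HFCF became 45 without HFCF WT replicate 1, and 28, 33 and 117 without HFCF HuRHep-/- replicates 1, 2 and 3. Without HFCF WT replicates 2 and 3 there were 708 and 1280. Fitted on all 12 libraries, 947 genes were called in chow and 1621 in HFCF, with 0 members in either. Over both diets *Cyp3a59* was the 1 member called, raised in livers labelled HuRHep-/-, where 8.95% of 14535 genes were called raised. The 2793 genes called in either direction over both diets became 1849 without chow HuRHep-/- replicate 2. The median log2 fold change of the members was -0.04 in chow, -0.24 in HFCF and -0.29 over both diets, beside 0.00, -0.00 and 0.01 over all genes tested.

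*Cyp3a59* was 1.58-fold higher in chow HuRHep-/- than in chow WT (log2 0.66, 95% interval 0.17 to 1.16, adjusted p = 0.121), with no overlap in CPM, and 1.34-fold higher in HFCF (log2 0.43, -0.09 to 0.94, adjusted p = 0.238), with overlap. Over both diets the log2 difference was 0.55 (0.17 to 0.93, adjusted p = 0.0441). The exact two-sided permutation test, with labels exchanged within each diet (400 arrangements), gave p = 0.015. The call lay close to the threshold. It was lost with no filter on low counts (0.54, adjusted p = 0.0527), and the fitted 1.46-fold is under a limit of 1.5-fold. It held in 2 of 12 fits that left out 1 library (without chow WT replicate 1 or HFCF WT replicate 3), and in the other 10 the log2 difference was 0.43 to 0.61 and the adjusted p from 0.0524 to 0.104.

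Against *Cyp3a25*, with which it shares 42.3% of its words, *Cyp3a59* was higher within each library of the livers labelled HuRHep-/-. Reads on *Cyp3a59* per 100 reads on *Cyp3a25* were 4.84, 4.98 and 5.12 in chow WT, 8.07, 6.36 and 6.23 in chow HuRHep-/-, 3.01, 4.08 and 4.80 in HFCF WT and 6.70, 5.66 and 6.17 in HFCF HuRHep-/-. All 6 livers labelled HuRHep-/- lay above all 6 WT livers. The ratio does not depend on the scaling of the libraries, but it was chosen after both rows were seen, so it is given without a test, and how the authors' counting split reads between the copies was not tested.

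**Figure D4:**
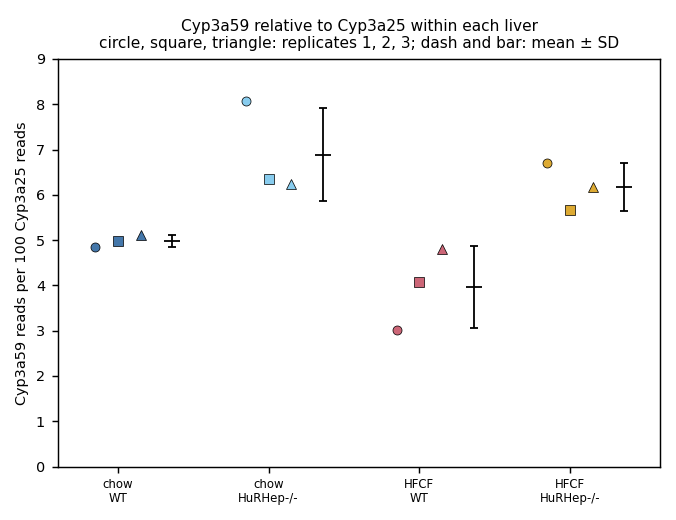
Reads on *Cyp3a59* per 100 reads on *Cyp3a25* (linear axis from 0) in each of 12 livers by group; symbols are replicates, and the dash and bar give the mean and SD of 3. The livers labelled HuRHep-/- lie between 5.66 and 8.07 and the WT livers between 3.01 and 5.12.

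*Cyp3a11* did not pass the test between genotypes. Its log2 difference was -0.29 in chow (95% interval -0.67 to 0.08, adjusted p = 0.322), -0.37 in HFCF (-1.12 to 0.38, adjusted p = 0.475) and -0.32 over both diets (-0.75 to 0.10, adjusted p = 0.262). In HFCF 1 library decided this. Without HFCF WT replicate 2, the liver with the lowest *Cyp3a11* count, the difference was -0.77 (adjusted p = 0.0246) in HFCF and -0.53 (adjusted p = 0.00921) over both diets. The *Cyp3a41* sum was also called over both diets without that library (-0.51, adjusted p = 0.0447), beside -0.33 (adjusted p = 0.274) with it. As a share of the reads on all 8 *Cyp3a* members, *Cyp3a11* took 82.0% to 85.9% in chow WT and 78.1% to 80.3% in chow HuRHep-/-, and in HFCF 65.1% to 82.1% in WT and 73.7% to 74.4% in HuRHep-/-.

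*Por* had log2 differences between genotypes of -0.32 in chow (95% interval -0.70 to 0.07, adjusted p = 0.296), -0.46 in HFCF (-0.90 to -0.03, adjusted p = 0.151) and -0.38 over both diets (-0.69 to -0.08, adjusted p = 0.0733), with overlapping ranges in each diet. The exact permutation test over both diets gave p = 0.05. Over both diets *Por* was called without chow HuRHep-/- replicate 3 (-0.47, adjusted p = 0.0307), HFCF WT replicate 1 (-0.46, adjusted p = 0.0444) or HFCF HuRHep-/- replicate 3 (-0.48, adjusted p = 0.0318).

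*Cyp3a13* had a log2 difference of 0.35 in chow (95% interval 0.09 to 0.62, adjusted p = 0.122), where all 3 HuRHep-/- livers lay above all 3 WT livers, and 0.07 in HFCF (-0.26 to 0.40, adjusted p = 0.783), where the groups overlapped. Over both diets it was 0.21 (adjusted p = 0.149), and without TMM factors 0.33 (adjusted p = 0.0397), a scaling under which the median over all genes was 0.13. *Cyp3a25* stood at 0.21 (adjusted p = 0.535) in chow and -0.24 (adjusted p = 0.143) in HFCF. *Cyp3a16* (-0.32 and -0.43) and *Cyp3a44* (-0.58 and 0.06) were not called in either diet, with adjusted p from 0.449 to 0.970.

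*Cyp2b10* had a log2 difference of 0.51 in chow (95% interval -0.69 to 1.71, adjusted p = 0.591) and 1.44 in HFCF (-1.04 to 3.91, adjusted p = 0.394), both wide. HFCF WT replicate 3 again decided the second. Without it the difference was 2.81 (adjusted p = 0.0186) in HFCF and 1.66 (adjusted p = 0.0107) over both diets, beside 0.98 (adjusted p = 0.312) with it. That library also had 271 counts of *Cyp2a4* and 64 of *Cyp2b13*, beside 26 and 14, and 3 and 0, in the 2 other HFCF WT livers, and 3128 to 6229 and 203 to 532 in HFCF HuRHep-/-. Why it stands apart was not tested. Of the 31-base words of *Cyp2b10*, 15.2% occurred in *Cyp2b13*, and how many of the low *Cyp2b10* counts in HFCF were reads of *Cyp2b13* was not tested. For *Cyp3a41b* in chow, 0, 0 and 27 counts in HuRHep-/- gave an adjusted p of 0.111, and one of 0.00635 without HuRHep-/- replicate 3, while the summed pair had a log2 difference of -0.32 (adjusted p = 0.411).

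Whether the genotype difference changed with diet was tested as an interaction. It was called for 0 of 10 members and for 0 of 14535 genes (limma); 2088 genes had an unadjusted p under 0.05, and with voom weights 1 gene was called. Without TMM factors 11 genes were called, and without HFCF WT replicate 3 there were 41 of 14473, with 0 members in either. The difference (HFCF minus chow) was -0.05 (95% interval -0.91 to 0.80) for *Cyp3a11*, -0.42 (-0.92 to 0.08) for *Cyp3a25*, -0.22 (-0.97 to 0.54) for *Cyp3a59*, -0.12 (-0.73 to 0.48) for *Por* and 0.95 (-1.91 to 3.80) for *Cyp2b10*. These intervals leave room for changes of more than 1.5-fold either way for *Cyp3a11* and *Cyp2b10*. *Cyp3a41b* had the smallest unadjusted p of the members (0.0208, adjusted p = 0.272), but for the summed pair the difference was -0.01 (adjusted p = 0.995).

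Of the genes of the PXR and CAR pathway listed beside the members (57 genes, of which 54 were tested over 12 libraries), PXR and CAR themselves were not called with diet. *Nr1i2* (PXR) had log2 fold changes of 0.06 in WT and 0.14 in HuRHep-/- with diet (adjusted p = 0.843 and 0.573), and *Nr1i3* (CAR) of -0.02 and -0.34 (adjusted p = 0.955 and 0.180). *Rxra*, their partner, stood at 0.14 and -0.08 (adjusted p = 0.254 and 0.458). Of the 2 other RXR genes, *Rxrg* rose with diet in WT (0.91, adjusted p = 0.00653) and stood at 0.03 in HuRHep-/- (adjusted p = 0.905), and *Rxrb* stood at -0.29 and -0.22 (adjusted p = 0.0526 and 0.0943). Between genotypes over both diets, *Nr1i3* was lower in livers labelled HuRHep-/- (-0.44, SE 0.13, adjusted p = 0.0383), and *Nr1i2* stood at 0.02 (adjusted p = 0.932). *Cyb5a* and *Cyb5r3*, which also carry electrons to P450 enzymes, and *Alas1*, the first enzyme of haem synthesis, were called in none of the comparisons, with log2 fold changes between diets of -0.16, 0.18 and 0.22 in WT and -0.12, 0.21 and 0.54 in HuRHep-/-.

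With diet, 16 of 54 pathway genes were called in WT (5 raised, 11 lowered), where 24.2% of all genes were, and 26 of 54 in HuRHep-/- (11 raised, 15 lowered), where 38.9% were. The 3511 genes called in WT became 1979 and 2295 without chow WT replicates 1 and 3, and 2103 without HFCF WT replicate 3. The medians over the pathway list were -0.03 in WT and -0.07 in HuRHep-/-. In WT the largest falls among the called pathway genes were those of *Cyp2c55* (-2.07, adjusted p = 0.000438), *Tuba8* (-1.99, adjusted p = 0.00236) and *Slco1a4*, an organic anion transporter (-1.67, adjusted p = 0.00152). The largest rises among the called genes in WT were those of *Sult1e1*, the oestrogen sulfotransferase (2.61, adjusted p = 0.0423), *Thrsp*, a lipogenic gene (1.40, adjusted p = 0.0256), and *Abcb1a*, a drug efflux pump (0.91, adjusted p = 0.0363). Among the called genes in HuRHep-/-, *Sult5a1* (-3.29, adjusted p = 0.000876), *Cyp2c54* (-2.15, adjusted p = 0.000183) and the carboxylesterase *Ces2a* (-1.42, adjusted p = 7.25e-05) fell most, and *Cyp2a4* (6.06, adjusted p = 0.000686) and *Cyp2b9* rose. *Cyp2b13* had 0 counts in all 3 chow HuRHep-/- livers and was at least 93.7-fold higher in HFCF HuRHep-/- against a floor of 3 counts per library.

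Between genotypes, 4 of 51 pathway genes were called in chow, where 4.18% of all genes were, all lowered in livers labelled HuRHep-/-: *Ugt1a1*, which conjugates bilirubin (-0.70, adjusted p = 0.00757), *Cyp2c54* (-0.65, adjusted p = 0.0358), *Aldh1a1* (-0.49, adjusted p = 0.0184) and *Ces2a* (-0.44, adjusted p = 0.0461). In HFCF 10 of 54 were called (3 raised, 7 lowered), where 6.79% of all genes were. Among these 10 the largest falls were in *Sult5a1* (-2.74, adjusted p = 0.0413), *Cyp2c54* (-1.61, adjusted p = 0.0279) and *Ugt1a1* (-0.66, adjusted p = 0.0189). The rises among them were in *Cyp2a4* (6.21, adjusted p = 0.0243), *Tuba8* (1.505, adjusted p = 0.0379) and *Slco1a4* (1.05, adjusted p = 0.0441). Over both diets 17 of 54 were called (4 raised, 13 lowered), where 19.2% of all genes were. Among these 17 the same 6 genes had the largest changes, from -1.51 (*Sult5a1*, adjusted p = 0.0160) to 3.78 (*Cyp2a4*, adjusted p = 0.00267). *Cyp2c54* stood at -1.13 (adjusted p = 0.00129), *Ugt1a1* at -0.68 (adjusted p = 7.17e-05), *Slco1a4* at 0.81 (adjusted p = 0.0106) and *Tuba8* at 0.97 (adjusted p = 0.0160). The median over the pathway list was -0.13 in chow, -0.08 in HFCF and -0.03 over both diets.

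Outside the members, the tables list *Cyp3a57* (chromosome 5, 145345279 to 145390926) and the pseudogene *Cyp3a63-ps*. *Cyp3a57* had 10 to 29 counts in chow livers and 1 to 16 in HFCF livers, and it was lower in HFCF WT (-1.88, adjusted p = 0.0438) and was not called in HuRHep-/- (-1.12, adjusted p = 0.170). *Cyp3a63-ps* had 2 to 13 counts and was not tested.

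The genes whose pattern over the 12 livers lay closest to a member were found by the mean absolute difference of log2 CPM centred on each gene's mean, a description with no test over 14535 genes. For *Cyp3a11* they were *Cyp3a16* (0.175), *Zfp867* (0.247) and *Cyp2j9*, another P450 (0.256), where the median gene stood at 0.651. For *Por* they were *Cebpb*, a liver-enriched transcription factor (0.102), and *Marveld1* (0.124), with a median of 0.345. For *Cyp2b10* they were *Gm32540* (0.793), *Cxcl13*, a B cell chemokine (0.825), and *Raet1e* (0.919), with a median of 1.77. All 12 points share the 2 diets, and *Cyp3a16* shares sequence with *Cyp3a11*.

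In bulk liver RNA, fewer cells of a type and less RNA per cell cannot be told apart. Hepatocyte markers were high in every library, with 9 of the 10 listed genes in the tables and none at 0, and their summed level was lower in every HFCF liver than in any chow liver, as was *Cyp3a11*. The sum was 111120 to 135230 CPM in chow WT, 91660 to 98512 in chow HuRHep-/-, 76981 to 88827 in HFCF WT and 69444 to 73860 in HFCF HuRHep-/-. Of the 9, 5 were lowered with diet in WT (median -0.71) and 7 in HuRHep-/- (median -0.56), and 0 were raised, where 12.9% and 19.1% of all genes were lowered. Stellate cell markers summed to 128 to 198 CPM in chow and 165 to 459 in HFCF livers, with 7 of 7 raised with diet in HuRHep-/- and 1 of 7 in WT, where 38.9% and 24.2% of all genes were called in either direction. Cholangiocyte markers summed to 35.1 to 79.0 CPM in chow, 38.6 to 87.4 in HFCF WT and 133 to 242 in HFCF HuRHep-/-, and 5 of 5 tested were raised with diet in HuRHep-/- and 0 of 5 in WT, beside the same 38.9% and 24.2%. Kupffer cell markers summed to 139 to 178 CPM in chow WT and 196 to 290 in chow HuRHep-/-, and to 210 to 335 and 283 to 482 in HFCF. Endothelial markers summed to 95.3 to 125 CPM in chow, 103 to 122 in HFCF WT and 120 to 126 in HFCF HuRHep-/-. Lymphocyte markers summed to 5.51 to 6.89 CPM in HFCF HuRHep-/- and to 2.41 to 4.49 in the other libraries. Of these markers, 3 of 7 were raised with diet in HuRHep-/- and 0 of 7 in WT, beside the same 38.9% and 24.2%. In livers labelled HuRHep-/-, 3 of 7 Kupffer and 2 of 5 cholangiocyte markers were raised over both diets, and 2 of 9 hepatocyte markers were lowered. Over all genes 19.2% were called in that comparison, and no stellate, endothelial or lymphocyte marker was. No marker of any list was at 0 in all libraries of a group. The part of these shifts in the changes of the members was not tested.

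The 13 listed acute-phase genes, a class that hepatocytes raise in inflammation, had a higher summed level in livers labelled HuRHep-/- on each diet. They summed to 8708 to 9617 CPM in chow WT and 10439 to 16780 in chow HuRHep-/-, and to 6265 to 7913 and 8657 to 9929 in HFCF. Of the 13, 5 were raised in chow HuRHep-/-, 0 were called in HFCF and 9 were raised over both diets, where 4.18% and 6.79% of all genes were called in chow and HFCF and 8.95% were raised over both diets. Over both diets 11 of the 13 had positive and 2 negative log2 differences. Outside this list, *Hpx*, counted among the hepatocyte markers, was lower in livers labelled HuRHep-/- (-0.91, adjusted p = 0.0213 in chow and -1.61, adjusted p = 0.00236 in HFCF). The part of the acute-phase genes in the *Cyp3a59* difference was not tested.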

How the data were processed

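RNA came from whole livers of 12 mice, 3 in each of 4 groups given by the labels. The authors mapped reads in CLC Genomics Workbench (version not given in the sources used here) to GRCm38.p6 (the build in their processing notes), and deposited raw counts per gene in 2 tables, 1 per diet. The deposited counts are whole numbers stored as text with commas, which were removed. A test on log2 values was chosen in place of a count model, which these counts would also allow.

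Log2 CPM was computed with TMM factors and a pseudocount of 0.5. A gene was kept where at least 3 libraries reached the CPM that 10 counts give in the median library and its total was at least 15. limma 3.58.1 (R 4.3.3) was fitted with a variance trend, on 6 libraries for the genotype within a diet and on 12 otherwise, with Benjamini-Hochberg adjustment over all genes kept. A call means an adjusted p of at most 0.05. The fits were tested on simulated counts. Replicates are numbered without further detail in the labels, so p-values measure the spread between these samples. An exact permutation test of 3 against 3 cannot go below p = 0.1.

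Members and lists were chosen with earlier results of these data known. The named genes were the members, *Elavl1*, the other *Cyp3a* rows, *Nr1i2*, *Nr1i3*, *Rxra*, *Cyb5a*, *Cyb5r3*, *Alas1*, up to 3 called pathway genes with the largest rise and 3 with the largest fall per comparison, and the 3 genes closest in pattern to *Cyp3a11*, *Cyp2b10* and *Por*, of which 1 is not reported here. *Ces2a* in chow, and *Cyp2a4*, *Cyp2b9* and *Cyp2b13* beside HFCF WT replicate 3, and *Rxrb*, *Rxrg* and *Hpx*, were named after their values were seen. Gene positions and coding sequences came from GENCODE (GRCm38), promoters from RefSeq, read with Python 3.11.15 and Biopython 1.88. Alternatives were other scalings, filters, a pseudocount of 2, voom weights, a replicate block and a fold change limit. The genotype effects within a diet were also fitted on all 12 libraries, and each library was left out in turn. Scaling without factors, and each library left out of the summed *Cyp3a41* rows, were added after the data were seen.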

Additional observations from a re-analysis of the deposited data

How the results depend on the processing

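The count of members called with diet stayed within 1.5 times of 6 under every scaling, filter, pseudocount, weighting and block tried, in WT and in HuRHep-/-. Leaving out 1 library moved it from 1 to 6 in WT and from 3 to 7 in HuRHep-/-. The lowest WT counts came without chow WT replicate 1 (1, *Cyp3a11*), HFCF WT replicate 1 (2) and chow WT replicate 3 (3), and the lowest HuRHep-/- count without chow HuRHep-/- replicate 1 (3). Between genotypes, 0 to 1 members were called in chow and 0 to 1 in HFCF without 1 library, 0 to 2 over both diets, and 0 for the difference between diets. Over both diets the count of 1 became 0 with no filter and with a fold change of at least 1.5, and 2 without TMM factors. The cause was not tested.

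Whether the replicate numbers of the labels pair the samples cannot be settled with 3 libraries per group, and the main fits used no pairing. Correlations of same-numbered libraries within a diet ran from -0.03 to 0.19, above 0.1 in 2 of 6 pairs. In HFCF they were 0.0878, 0.188 and 0.0866, beside -0.119 to 0.0165 for differently numbered WT and HuRHep-/- libraries. In chow they were -0.0297, 0.109 and -0.00332, beside -0.131 to 0.136. With the replicate number as a block, 1 member was called in chow (*Cyp3a59*) and 2 over both diets (*Cyp3a59* and *Por*), and the other member counts were the same. Over all genes, 341 were called in chow and 1342 in HFCF with the block, beside 566 and 971 without it.

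Signs turned for differences that were not called. Summing the *Cyp3a41* rows gave -0.32 for the genotype in chow (*Cyp3a41a*), -0.0077 for the difference between diets and -1.08 for the diet in HuRHep-/- (*Cyp3a41b*). *Cyp3a25* over both diets became 0.0082 with upper-quartile factors, 0.10 without TMM factors and 0.00062 with at least 10 counts in every library, and *Cyp3a41a* with diet in WT became 0.019 without TMM factors. Without 1 library, signs also turned within these ranges. For the genotype in chow, *Cyp3a25* ran from -0.017 to 0.38. In HFCF, *Cyp3a13* ran from -0.080 to 0.15 and *Cyp3a44* from -0.48 to 0.77. Over both diets, *Cyp3a25* ran from -0.12 to 0.075, *Cyp3a41a* from -1.63 to 0.08 and *Cyp3a44* from -0.52 to 0.091. For the difference between diets, *Cyp3a11* ran from -0.46 to 0.21, *Cyp3a16* from -0.53 to 0.28, *Cyp3a59* from -0.45 to 0.010, *Por* from -0.30 to 0.049 and the *Cyp3a41* sum from -0.37 to 0.25. With diet, *Cyp3a41a* in WT ran from -0.42 to 0.20, and in HuRHep-/- *Cyp3a41b* ran from -2.12 to 1.98, *Cyp3a44* from -0.99 to 0.090 and *Por* from -0.050 to 0.30. TMM factors ran from 0.882 to 0.989 in chow and from 0.974 to 1.14 in HFCF. Without them, the median over all genes was 0.19 with diet in WT and 0.23 in HuRHep-/-.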
